A study of Homo sapiens with 6 samples.

Results

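The genes of the eukaryotic translation initiation factors were examined in HEY cells that overexpress CSGALNACT2. They were taken as the protein-coding genes of the deposited table whose names begin with EIF1 to EIF6, without the kinase genes named EIF2AK and without EIF1AX and EIF1AY. A total of 50 genes met this rule, of 19951 protein-coding genes and 58735 genes in all. The rule used names and no measured value. HEY is an established human ovarian cancer cell line. The 3 oeCSGALNACT2 libraries came from HEY cells that received a pLVX-IRES-Puro plasmid for CSGALNACT2, an enzyme that adds N-acetylgalactosamine in chondroitin sulfate synthesis. The 3 Vector libraries came from HEY cells that received the empty plasmid. The comparison asks what CSGALNACT2 overexpression does to the RNA levels of these cells. Both groups were grown in DMEM with fetal bovine serum. For the sequenced cells the study's methods speak of transfection, elsewhere they describe infection with lentivirus in polybrene and selection with puromycin, and a legend speaks of stable overexpression, and whether the cells were 1 clone or a pool is not given in the sources used here. Nothing states that the libraries of a group were separate cultures, so each p-value covers no more than the spread among these 6 libraries.

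Translation of most cellular mRNAs starts at the cap. The eIF4F complex, made of the cap-binding protein eIF4E, the scaffold eIF4G and the helicase eIF4A, brings the mRNA to a small ribosomal subunit that carries eIF1, eIF1A, eIF3, eIF5 and the ternary complex of eIF2, GTP and initiator tRNA. Phosphorylation of eIF2 alpha blocks the exchange factor eIF2B and lowers bulk initiation, and the 4E-binding proteins block eIF4E until mTORC1 phosphorylates them. Both switches are used by cancer cells under stress, and neither phosphorylation is visible in RNA levels.

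The labels were checked by CSGALNACT2 itself, which had 535, 453 and 409 FPKM in oeCSGALNACT2 libraries 1, 2 and 3, against 15.3, 8.18 and 8.12 FPKM in the Vector libraries. FPKM values are reads scaled by gene length and library size. On the scale of log2(FPKM + 1) it was higher by 5.39 (SE 0.27, adjusted p = 0.00302, limma). Each library held 15628834 to 18186682 reads. In both groups replicate 1 stood apart from replicates 2 and 3, with Pearson's r of 0.887 to 0.913 against it and 0.986 to 0.991 between replicates 2 and 3, across genes. The share of reads on mitochondrial genes was 4.60% to 4.82% in oeCSGALNACT2 and 2.77% to 3.61% in Vector libraries, and its part in the results was not tested. Of 10 epithelial and ovarian carcinoma markers, 6 had a mean of at least 1 FPKM, with a summed level of the list of 336 to 580 FPKM in oeCSGALNACT2 and 179 to 327 FPKM in Vector cells, while EPCAM, KRT19, MUC16 and CDH1 lay under it. Of 10 markers of blood and endothelial cells, 9 had a mean under 1 FPKM, with CD3E at 0 in every library, and the list summed to 6.40 to 10.8 FPKM in oeCSGALNACT2 and 20.1 to 31.7 FPKM in Vector cells. CDH5, the cadherin of endothelial cells, carried most of that sum at 8.50 ± 2.06 FPKM in oeCSGALNACT2 and 26.2 ± 5.87 FPKM in Vector cells (SD, n = 3 libraries each).

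On the scale of log2(FPKM + 1) the largest differences among the tested genes were in EIF1B, EIF1 and EIF4EBP2. For EIF1 and EIF1B the mean FPKM was 2.17-fold and 2.59-fold lower in oeCSGALNACT2 than in Vector cells, and for EIF4EBP2 it was 2.00-fold higher. The genes of eIF2 beta and gamma, EIF2A, EIF4B and EIF4EBP1 were lower too, and EIF3B, EIF5A, EIF4E2, EIF4G1 and EIF4G2 were higher, all with a smaller margin or more spread. Of the 50 genes, 46 had a mean of at least 1 FPKM and were tested, and EIF4A1, EIF4E3, EIF4EBP3 and EIF4E1B were not. None of the 46 passed an adjusted p of 0.05 in limma across all 11479 tested genes, of which 1.35% passed (0.505% rose and 0.845% fell). The lowest adjusted p was 0.0544, for EIF1. At an unadjusted p under 0.05 there were 8, where 17.1% of all genes were, and edgeR on the recovered reads also called 0 of the 46, with 1.31% of all genes called. DESeq2 called EIF1, EIF1B and EIF4EBP2 among the 48 members it gave an adjusted p, 6.25% of them against 4.54% of all genes.

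Libraries of the same replicate number deviated from their group means together, which set replicate 1 apart from the others in both groups while replicate 2 of each group also deviated together with replicate 3 of the other group. With the replicate number as a block, 11 of the 46 genes rose and 15 fell in limma. These 26 genes are 56.5% of those tested, against 43.7% of all 11479 genes (21.2% rose and 22.5% fell). With edgeR and the block 13 rose and 16 fell, 63.0% against 50.2% of all genes. In replicates 2 and 3 alone, 10 rose and 14 fell in limma, 52.2% against 41.8% of all genes. The groups did not overlap for 17 of the 46 genes, 7 higher and 10 lower in oeCSGALNACT2 cells, or 37.0% against 24.0% of all genes (11.2% higher and 12.8% lower). The median log2 fold change of the 46 genes was −0.09, against −0.01 over all genes tested, and 26 of them lay below 0, where 50.8% of all genes did. The median was 0.02 without Vector replicate 1, and leaving out oeCSGALNACT2 replicate 3 or 2 gave 0.02 and 0.00029. Summed over the 50 genes, the level was 2332, 2122 and 2276 FPKM in oeCSGALNACT2 libraries and 2648, 2326 and 2366 FPKM in Vector libraries. Fewer cells with a given RNA and less of that RNA per cell cannot be told apart in these bulk samples.

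**Figure D1:**
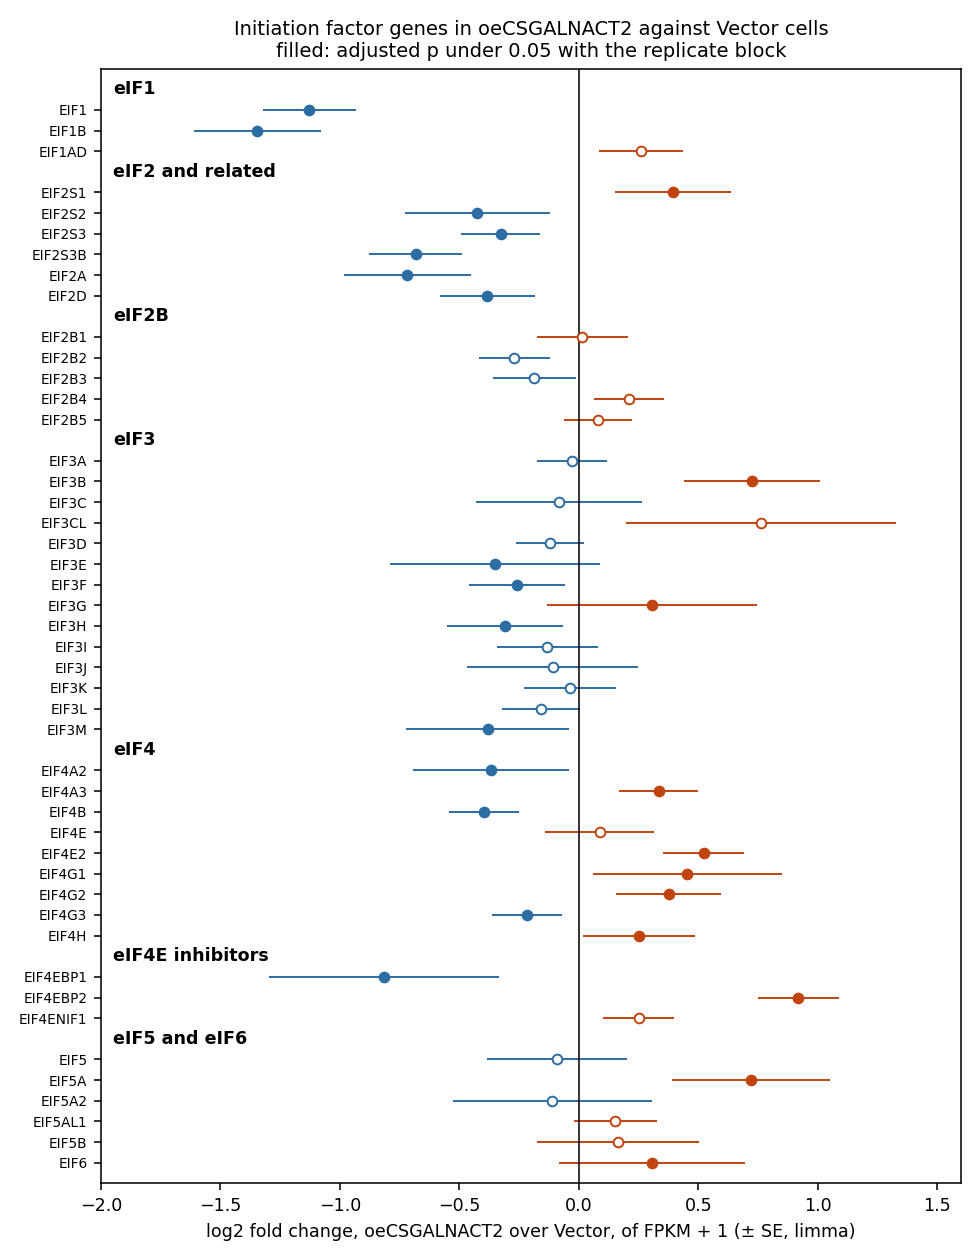
Log2 fold change of FPKM + 1, oeCSGALNACT2 over Vector, with its SE from limma, for the 46 tested initiation factor genes grouped by complex. Filled points, 11 to the right of 0 and 15 to the left, passed an adjusted p of 0.05 with the replicate number as a block, and none passed without it.

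The annotated transcription starts of the genes divide them in a way that the rule did not use. Many mRNAs of ribosomal proteins and translation factors begin with a C followed by an unbroken run of pyrimidines, the terminal oligopyrimidine tract, through which mTORC1 and LARP1 control their translation and stability. The starts were read from RefSeq promoter windows on GRCh38.p14, which matched 42 of the 50 genes, and a start was counted where the first transcribed base is C and at least the next 4 bases are C or T on the gene's strand. Such a start was found in 10 of the 38 tested genes with a window (26.3%), against 7.70% of 8334 tested genes of any kind. A gene with several windows was counted if any of them held such a start. Of all 35116 windows, counted singly and so not a like measure, 4.07% held one. The 10 genes are shown because all had log2 fold changes below 0. Each line holds the 10 bases before the annotated start and the first 20 transcribed bases, 5′ to 3′, with the pyrimidine tract in capitals.
EIF2A (chr3:150546777-150546806, plus strand): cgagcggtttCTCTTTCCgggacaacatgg
EIF2S3 (chrX:24054946-24054975, plus strand): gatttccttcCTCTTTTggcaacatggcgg
EIF2S3B (chr12:10505880-10505909, plus strand): gactttcttcCTCTTTTggcaacatggcgg
EIF2D (chr1:206612446-206612475, minus strand): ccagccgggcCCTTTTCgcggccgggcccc
EIF3D (chr22:36529147-36529176, minus strand): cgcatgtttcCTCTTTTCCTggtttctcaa
EIF3F (chr11:7987327-7987356, plus strand): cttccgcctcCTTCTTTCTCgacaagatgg
EIF3K (chr19:38619178-38619207, plus strand): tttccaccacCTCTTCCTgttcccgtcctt
EIF3M (chr11:32583821-32583850, plus strand): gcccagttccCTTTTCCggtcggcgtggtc
EIF4A2 (chr3:186783567-186783596, plus strand): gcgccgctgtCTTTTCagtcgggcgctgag
EIF4B (chr12:53006446-53006475, plus strand): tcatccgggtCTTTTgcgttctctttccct

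For contrast, the same 30 bases are given for 4 genes with large changes, whose annotated starts hold no such tract.
EIF1 (chr17:41688875-41688904, plus strand): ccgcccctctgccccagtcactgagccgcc
EIF1B (chr3:40309697-40309726, plus strand): cattttgtgcgagaagccgcagcgccgcct
EIF3B (chr7:2354817-2354846, plus strand): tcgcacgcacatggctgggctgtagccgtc
EIF4EBP2 (chr10:70404135-70404164, plus strand): gccttcgcccgcttccggtcgtcgtcgtcg

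The 10 genes with a pyrimidine start had log2 fold changes of −0.72 to −0.04, with a median of −0.37. With the block 8 of them fell and 0 rose, where 22.5% of all genes fell and 21.2% rose, and EIF3D and EIF3K did not pass. When 1 library was left out, all 10 still lay below 0, except that 9 did without Vector replicate 2 and without Vector replicate 3. Of the 28 tested genes with a window and no such start, 10 lay below 0, the median was 0.16, and with the block 10 rose and 3 fell. The other tested genes had no window, so their kind of start is not known. Of these, EIF2S2, EIF3A, EIF3E, EIF3H, EIF3L and EIF4EBP1 lay below 0, and EIF3CL and EIF3G above. With the block EIF2S2, EIF3E, EIF3H and EIF4EBP1 fell and EIF3G rose. Beyond the initiation factors the genes with such a start lay on both sides of 0, more of them below. Among all 642 tested genes with a pyrimidine start, 66.4% lay below 0 with a median of −0.15, against 49.4% and 0.01 for the 7692 without. The 42 ribosomal protein genes among them had a median of −0.30, with 40 below 0. Without the ribosomal proteins and the initiation factors, 590 genes remained, with 63.7% below 0 and a median of −0.12. With the block 180 of these 590 fell and 89 rose. The highest log2 fold change among them, 5.39, is that of CSGALNACT2 itself, the overexpressed gene, which is counted among those that rose. The division by start was noticed in these data, so it is a description and was given no test. EIF2S3 and EIF2S3B share most of these 30 bases and are not separate cases.

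**Figure D2:**
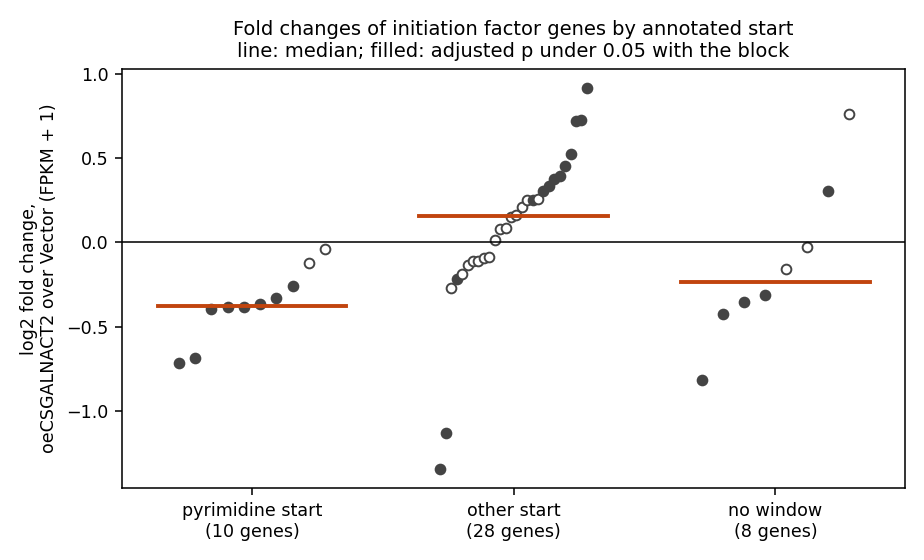
Log2 fold change of FPKM + 1, oeCSGALNACT2 over Vector, for each tested initiation factor gene, by whether its annotated start is a pyrimidine tract, another sequence or has no RefSeq window. The 10 genes with a pyrimidine start all lie below 0 (median −0.37), the 28 with another start lie on both sides (median 0.16), and filled points passed with the block.

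In the whole windows of 300 bases, from 250 before the start to 50 after it, the E-box CACGTG stood in 11 of the 42 genes (26.2%), against 8.77% of all genes with windows. The ETS-type core CCGGAA stood in 19 of the 42 (45.2%), against 20.1%. The CCAAT box, CCAAT, also stood in 19 (45.2%), against 39.7%, and the cyclic AMP response element TGACGTCA in 0, against 2.25%. Both strands were searched, and a match describes letters and not a bound site.

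EIF1B and EIF1 had the lowest log2 fold changes of the 46 tested genes. eIF1 keeps the scanning ribosome from starting at the wrong codon, and EIF1 and EIF1B encode nearly the same protein. EIF1 (ENSG00000173812, chr17:41688885-41692668) had 126, 85.9 and 95.9 FPKM in oeCSGALNACT2 libraries 1, 2 and 3, against 245, 204 and 220 FPKM in the Vector libraries. The groups were separated by 77.9 FPKM, with all oeCSGALNACT2 libraries the lower, and the highest library of each group was replicate 1. The log2 fold change was −1.13 (SE 0.19), with an adjusted p of 0.0544 in limma, and EIF1 fell with the block (adjusted p = 0.000759). EIF1 also fell in limma on protein-coding genes alone, where 1.69% of all genes passed and no other initiation factor gene did.

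EIF1B (ENSG00000114784, chr3:40309684-40312424) had 19.6, 11.2 and 11.2 FPKM in oeCSGALNACT2 libraries and 43.8, 33.1 and 32.0 FPKM in Vector libraries. Again the groups did not overlap, and replicate 1 was the highest in each. The log2 fold change was −1.35 (SE 0.27), with an adjusted p of 0.0699 in limma and 0.000759 with the block. Without oeCSGALNACT2 replicate 1, both EIF1 and EIF1B passed in limma without the block, alone among the 46 genes, where 1.39% of all genes passed. Together EIF1, EIF1B and EIF1AD, grouped by name, summed to 151, 106 and 115 FPKM in oeCSGALNACT2 libraries and 295, 243 and 258 FPKM in Vector libraries. EIF1AD, whose protein resembles eIF1A, had 5.72, 8.44 and 7.66 FPKM in oeCSGALNACT2 libraries, against 6.01, 5.79 and 5.72 FPKM in Vector libraries, and did not pass with the block (adjusted p = 0.135, limma), though it rose in replicates 2 and 3 alone (adjusted p = 0.0122, limma).

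**Figure D3:**
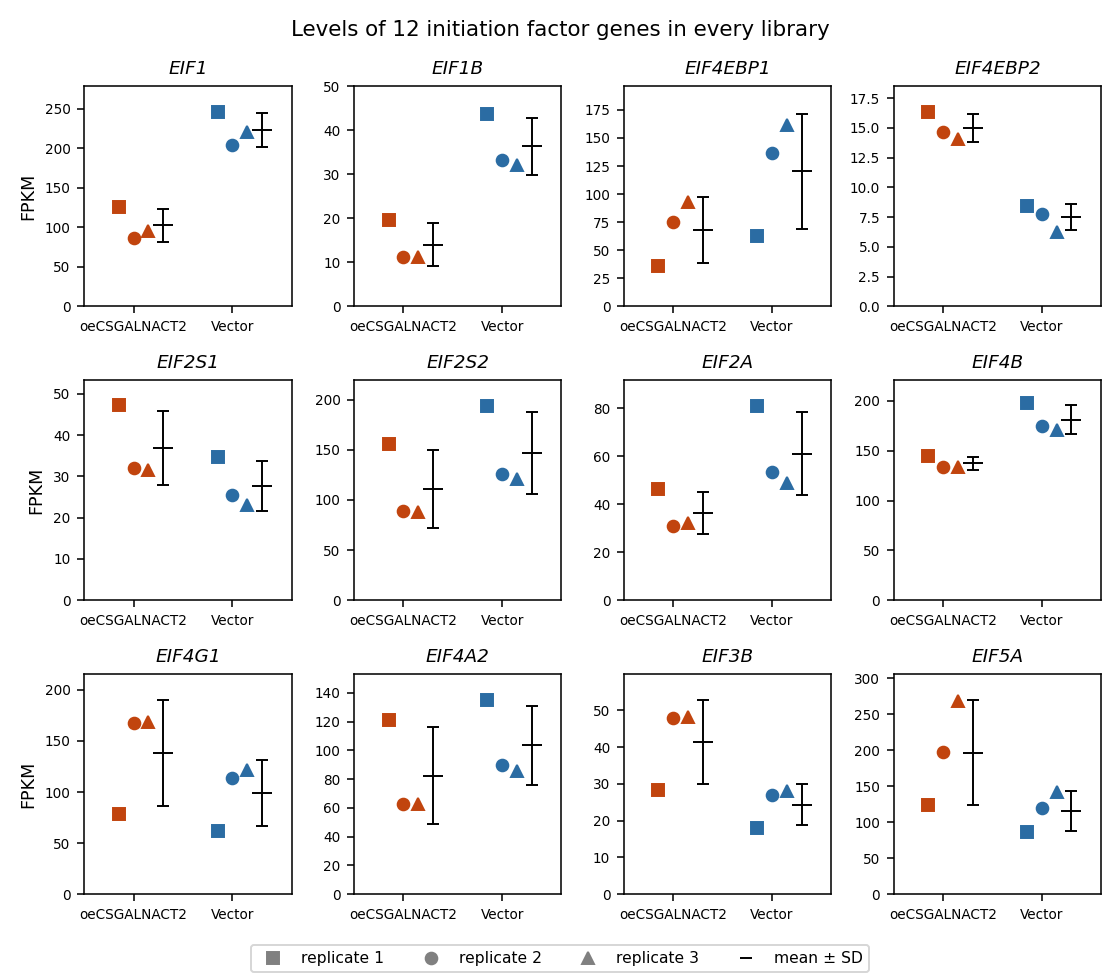
FPKM of 12 initiation factor genes in each library, oeCSGALNACT2 left and Vector right, with the replicate as the shape of the point and the mean ± SD beside the points. The groups are apart for EIF1, EIF1B, EIF2A, EIF4B, EIF3B and EIF4EBP2, and the ranges of the groups overlap for the other 6 genes.

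The genes of the eIF2 subunits were grouped with EIF2A and EIF2D, which share the name. All 6 genes of this group passed with the block, 5 of them lower, where 43.7% of all genes passed and 22.5% fell. EIF2S1 encodes eIF2 alpha, the subunit that stress kinases phosphorylate, and it was the one that rose. EIF2S1 (chr14:67359997-67386516) had 47.2, 31.9 and 31.5 FPKM in oeCSGALNACT2 libraries, against 34.6, 25.5 and 23.1 FPKM in Vector libraries. The ranges overlapped, because Vector replicate 1 lay above oeCSGALNACT2 replicates 2 and 3, but the oeCSGALNACT2 library was the higher in all 3 pairs. EIF2S1 rose with the block, with a log2 fold change of 0.39 (SE 0.24) and an adjusted p of 0.479 in limma and 0.00567 with the block.

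EIF2S2, for the beta subunit (chr20:34088298-34112332), had 155, 88.8 and 87.7 FPKM in oeCSGALNACT2 libraries and 194, 126 and 121 FPKM in Vector libraries. It was lower in all 3 pairs while the ranges overlapped through oeCSGALNACT2 replicate 1, and it fell with the block (log2 fold change −0.42, SE 0.30, adjusted p = 0.547 in limma and 0.00553 with the block). EIF2S3, for the gamma subunit that binds GTP and the initiator tRNA (chrX:24054716-24077971), had 56.4, 49.3 and 56.3 FPKM in oeCSGALNACT2 libraries, against 77.2, 66.2 and 61.2 FPKM in Vector libraries. Its groups did not overlap, by a gap of 4.84 FPKM between the closest libraries, and it fell with the block (log2 fold change −0.33, SE 0.17, adjusted p = 0.388 in limma and 0.0272 with the block). In replicates 2 and 3 alone EIF2S3 did not pass (adjusted p = 0.064, limma).

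EIF2S3B (chr12:10505602-10523135), a second gene for eIF2 gamma, was close to the detection filter with 1.24, 1.21 and 1.35 FPKM in oeCSGALNACT2 libraries and 3.64, 2.31 and 2.15 FPKM in Vector libraries. The groups were apart, and the gene fell with the block (log2 fold change −0.68, SE 0.19, adjusted p = 0.15 in limma and 0.0198 with the block). Of its 50-base words, 25.5% also stand in transcripts of EIF2S3 and in no other gene, so the level of EIF2S3B is uncertain. Over the 6 libraries the mean was 61.1 FPKM for EIF2S3 and 1.98 FPKM for EIF2S3B. Whether reads of EIF2S3 were counted for EIF2S3B was not tested. EIF2A (chr3:150546678-150584242), for a protein that can deliver initiator tRNA without eIF2, had 46.5, 30.9 and 32.0 FPKM in oeCSGALNACT2 libraries, against 80.8, 53.5 and 48.8 FPKM in Vector libraries. The highest oeCSGALNACT2 library, replicate 1, lay just under the lowest Vector library, and EIF2A fell with the block (log2 fold change −0.72, SE 0.27, adjusted p = 0.241 in limma and 0.00158 with the block). EIF2D, a factor of ribosome recycling and noncanonical initiation, fell with the block as well, by 0.38 on the log2 scale (adjusted p = 0.0184, limma).

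None of the 5 genes of eIF2B, the exchange factor that reloads eIF2 with GTP, passed in limma on all libraries with or without the block, and none had an unadjusted p under 0.05 in limma. Of all genes, 43.7% passed with the block, 1.35% passed without it and 17.1% had an unadjusted p under 0.05. Their log2 fold changes lay between −0.27 for EIF2B2 and 0.21 for EIF2B4, and their mean levels between 4.24 and 15.8 FPKM. The sum over the 5 genes was 51.2, 43.2 and 44.1 FPKM in oeCSGALNACT2 libraries and 50.7, 47.0 and 45.0 FPKM in Vector libraries, with overlapping ranges. For EIF2B2, EIF2B4 and EIF2B5 the groups did not overlap, EIF2B2 lower and the others higher in oeCSGALNACT2 cells. These are 60.0% of the 5, against 24.0% of all genes. The gaps between the closest libraries were 0.495 FPKM for EIF2B2, 0.031 FPKM for EIF2B4 and 0.074 FPKM for EIF2B5. EIF2B3 fell in replicates 2 and 3 alone (adjusted p = 0.0432, limma), where 41.8% of all genes passed.

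All 14 genes of eIF3, the largest initiation factor and the scaffold on the small subunit, were tested, and with the block 2 rose and 4 fell, or 42.9% against 43.7% of all genes. EIF3B encodes a scaffold subunit that holds EIF3G and EIF3I. EIF3B (chr7:2354086-2380745) had 28.3, 47.8 and 48.0 FPKM in oeCSGALNACT2 libraries, against 18.1, 26.9 and 28.2 FPKM in Vector libraries. The groups were apart by 0.174 FPKM, between oeCSGALNACT2 replicate 1 and Vector replicate 3, and within each group replicate 1 was the lowest. EIF3B rose with the block (log2 fold change 0.73, SE 0.28, adjusted p = 0.267 in limma and 0.00146 with the block). Within replicates 2 and 3 alone it rose too (adjusted p = 0.00141, limma).

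EIF3G, whose protein binds RNA and eIF4B, rose with the block by 0.31 on the log2 scale (SE 0.064, adjusted p = 0.0151, limma with the block). Without the block its SE was 0.44 and its adjusted p was 0.786 in limma. EIF3G did not pass with the block after a correction for GC content (adjusted p = 0.0967, limma) or in replicates 2 and 3 alone (adjusted p = 0.0847, limma). EIF3E, EIF3F, EIF3H and EIF3M fell with the block, with log2 fold changes of −0.35, −0.26, −0.31 and −0.38 and adjusted p of 0.00826, 0.0205, 0.0112 and 0.00523 in limma. EIF3F did not pass with the block after a correction for GC content (adjusted p = 0.0637, limma). The remaining 8 genes, EIF3A, EIF3C, EIF3CL, EIF3D, EIF3I, EIF3J, EIF3K and EIF3L, did not pass, although EIF3D did with the block and the correction for GC content (adjusted p = 0.041, limma). Among them EIF3CL had the highest log2 fold change, 0.76 (SE 0.57), but 98.7% of its 50-base words also stand in transcripts of EIF3C. Of the words of EIF3C, 96.8% also stand in transcripts of EIF3CL, and neither gene shares words with any further gene. EIF3CL was lowest and EIF3C highest in oeCSGALNACT2 replicate 2, while both were highest in Vector replicate 1. EIF3CL had 7.57, 2.19 and 7.85 FPKM in oeCSGALNACT2 and 6.39, 1.58 and 1.61 FPKM in Vector libraries, and EIF3C had 1.94, 6.33 and 3.67 FPKM in oeCSGALNACT2 and 4.75, 3.08 and 4.10 FPKM in Vector libraries. The levels of this pair are therefore uncertain.

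Of the 12 genes of the eIF4 group, 9 were tested. With the block 5 rose and 3 fell, or 88.9% against 43.7% of all genes (21.2% rose and 22.5% fell). EIF4E, for the cap-binding protein (chr4:98871684-98930637), had 5.64, 3.53 and 4.16 FPKM in oeCSGALNACT2 libraries, against 5.46, 3.48 and 3.48 FPKM in Vector libraries. Its ranges overlapped, and it was the only tested gene of the group that did not pass with the block (log2 fold change 0.09, SE 0.23, adjusted p = 0.902 in limma and 0.428 with the block). EIF4E2 (chr2:232550052-232583644) encodes the cap-binding relative 4EHP, which represses translation of the mRNAs it is brought to. EIF4E2 had 5.56, 5.48 and 6.88 FPKM in oeCSGALNACT2 libraries, against 3.41, 3.64 and 4.54 FPKM in Vector libraries. The groups did not overlap, and EIF4E2 rose with the block (log2 fold change 0.52, SE 0.17, adjusted p = 0.191 in limma and 0.00458 with the block). Genes on the opposite strand overlap 24.2% of its exon bases, and whether the counting used the strand is not given in the sources used here. EIF4E3 had 0.285, 0.245 and 0.289 FPKM in oeCSGALNACT2 libraries and 0.812, 0.478 and 0.428 FPKM in Vector libraries, from 45 to 57 reads and 78 to 144 reads, and was not tested.

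The genes of the scaffold eIF4G differed from each other. EIF4G1 (chr3:184314495-184335358), the main scaffold of eIF4F, had 78.7, 167 and 168 FPKM in oeCSGALNACT2 libraries, against 62.1, 113 and 121 FPKM in Vector libraries. Replicate 1 was lower than the other replicates in both groups and the ranges overlapped, while every pair was higher in oeCSGALNACT2 cells, and EIF4G1 rose with the block (log2 fold change 0.45, SE 0.40, adjusted p = 0.63 in limma and 0.00509 with the block). EIF4G2 (chr11:10797050-10809110), for the relative DAP5 that lacks the eIF4E-binding part, had the highest mean of the family with 226, 168 and 168 FPKM in oeCSGALNACT2 and 181, 130 and 124 FPKM in Vector libraries. Here replicate 1 was the highest in both groups, and EIF4G2 rose with the block (log2 fold change 0.38, SE 0.22, adjusted p = 0.453 in limma and 0.00608 with the block). EIF4G3 (chr1:20806292-21176888), a second full scaffold, had 12.9, 14.8 and 14.4 FPKM in oeCSGALNACT2 libraries, against 16.3, 16.5 and 16.5 FPKM in Vector libraries. Its groups did not overlap and it fell with the block (log2 fold change −0.22, SE 0.15, adjusted p = 0.518 in limma and 0.0441 with the block), but it did not pass in replicates 2 and 3 alone (adjusted p = 0.0929, limma) or after a correction for GC content (adjusted p = 0.062, limma).

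The helicase genes and their helpers were also divided. EIF4A2 (chr3:186783205-186789900) had 121, 62.7 and 62.8 FPKM in oeCSGALNACT2 libraries, against 135, 89.6 and 85.6 FPKM in Vector libraries. Its ranges overlapped through oeCSGALNACT2 replicate 1, and it fell with the block (log2 fold change −0.37, SE 0.33, adjusted p = 0.637 in limma and 0.0203 with the block), although not after a correction for GC content as well (adjusted p = 0.0688, limma). EIF4A3 (chr17:80135214-80147183), the helicase of the exon junction complex, had 22.3, 25.3 and 26.9 FPKM in oeCSGALNACT2 libraries, against 17.5, 19.8 and 21.3 FPKM in Vector libraries. The groups were apart, and EIF4A3 rose with the block (log2 fold change 0.34, SE 0.17, adjusted p = 0.372 in limma and 0.00731 with the block). EIF4B (chr12:53006158-53042209), for the RNA-binding protein that stimulates the helicase, had 145, 133 and 133 FPKM in oeCSGALNACT2 libraries, against 198, 175 and 171 FPKM in Vector libraries. Its groups did not overlap, and EIF4B fell with the block (log2 fold change −0.40, SE 0.15, adjusted p = 0.24 in limma and 0.00467 with the block). EIF4H, whose protein acts like eIF4B, rose with the block by 0.25 on the log2 scale (adjusted p = 0.0169, limma).

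The level of EIF4A1, the main helicase gene, cannot be read from the table. EIF4A1 (chr17:7572706-7579005) was listed at 0.416, 0.873 and 0.967 FPKM in oeCSGALNACT2 libraries and 0.515, 0.677 and 0.656 FPKM in Vector libraries. Every 50-base word of its longest transcript (100%) also stands in transcripts of other annotated genes, among them the read-through gene SENP3-EIF4A1, and 48.6% of its exon bases overlap them. EIF4EBP3 shares 71.8% of its words, with the read-through ANKHD1-EIF4EBP3 overlapping it, and had 0, 1 and 0 reads in oeCSGALNACT2 libraries and 0, 7 and 4 reads in Vector libraries. For EIF4E1B, a cap-binding relative of germ cells, no read was counted in any library, which allows up to 3 reads in each. Further shares were 47.3% for EIF3L, 31.7% for EIF5A, 30.6% for EIF4B, 23.2% for EIF2S3 and 22.6% for EIF2S2, and how reads with several positions were counted is not given in the sources used here.

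**Figure D4:**
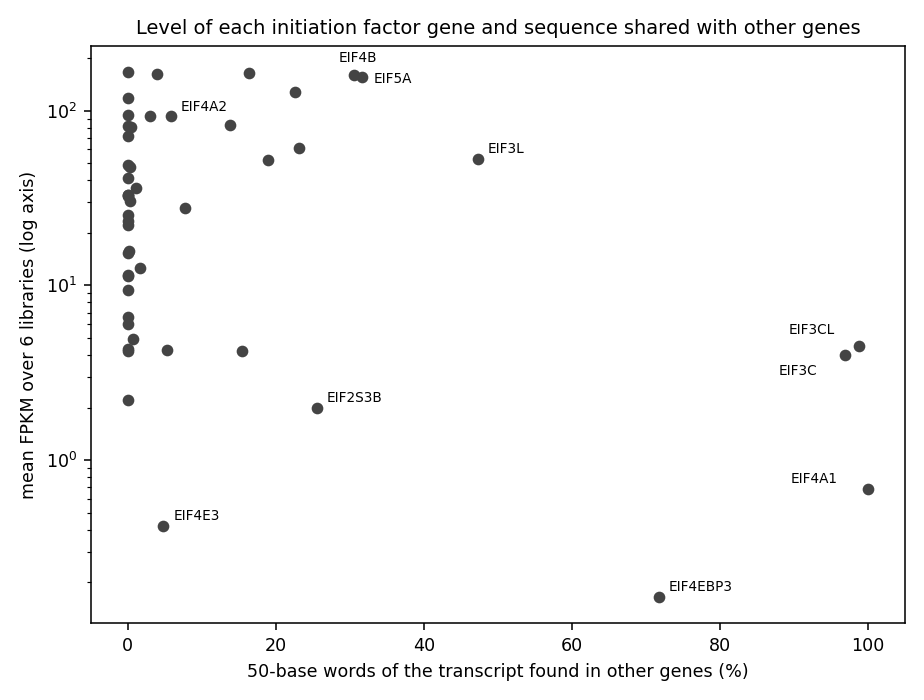
Mean FPKM over the 6 libraries, on a log axis, against the share of 50-base words of the longest transcript that also stand in other genes, 1 point per initiation factor gene with any read. EIF4A1, at 100% shared, is listed under 1 FPKM, while EIF4A2, with 5.83% shared, has a mean of 92.8 FPKM.

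The inhibitors of eIF4E changed in opposite directions with the block. EIF4EBP1 encodes the best known 4E-binding protein and is itself a target gene of ATF4. EIF4EBP1 had 35.7, 75.1 and 93.3 FPKM in oeCSGALNACT2 libraries, against 62.9, 137 and 161 FPKM in Vector libraries. It was lower in every pair, while replicate 1 was so much lower than the others in both groups that the ranges overlapped, and EIF4EBP1 fell with the block (log2 fold change −0.82, SE 0.48, adjusted p = 0.458 in limma and 0.000759 with the block). EIF4EBP2 (chr10:70404379-70428618), for a second protein of this kind, had 16.3, 14.6 and 14.1 FPKM in oeCSGALNACT2 libraries, against 8.45, 7.79 and 6.28 FPKM in Vector libraries. All oeCSGALNACT2 libraries were above the Vector libraries, and EIF4EBP2 rose with the block. Its log2 fold change was 0.92 (SE 0.17), with an adjusted p of 0.0621 in limma and 0.00115 with the block. EIF4ENIF1, for the transporter 4E-T that carries eIF4E to the nucleus, had non-overlapping groups but did not pass with the block (log2 fold change 0.25, adjusted p = 0.118, limma).

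The log2 ratio of EIF4EBP1 to EIF4EBP2, from FPKM + 1 within each library, was 1.08, 2.28 and 2.65 in oeCSGALNACT2 libraries, against 2.76, 3.97 and 4.48 in Vector libraries. Every oeCSGALNACT2 ratio lay below every Vector ratio, with a difference of −1.73. An exact two-sided permutation test over the 3 and 3 libraries gave p = 0.1, the smallest it allows, and 0.4 after adjustment over the 6 pairs of related genes that were compared. In the other 5 pairs the groups overlapped, and the ratio of EIF4A1 to EIF4A2 cannot be read because the level of EIF4A1 cannot. The differences in log2 ratio were 0.83 for EIF5A over EIF5A2, 0.67 for EIF4G1 over EIF4G3, 0.22 for EIF1 over EIF1B and −0.44 for EIF4E over EIF4E2, and the adjusted p was 0.4 for each of these by the exact permutation test, with n = 3 libraries a group.

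Among the 6 genes of eIF5 and eIF6, 2 rose with the block and none fell. These are 33.3% of the 6, against 43.7% of all genes (21.2% rose and 22.5% fell). EIF5A (chr17:7306999-7312463) encodes the factor that carries hypusine and helps ribosomes through stretches such as proline runs. EIF5A had 124, 197 and 269 FPKM in oeCSGALNACT2 libraries, against 86.1, 119 and 142 FPKM in Vector libraries. Replicate 1 was the lowest and replicate 3 the highest in both groups, the ranges overlapped, and EIF5A rose with the block (log2 fold change 0.72, SE 0.33, adjusted p = 0.339 in limma and 0.0032 with the block). EIF5A2 (chr3:170888415-170908693), its relative with amplification in ovarian cancer, had 19.3, 8.28 and 8.89 FPKM in oeCSGALNACT2 libraries, against 20.4, 10.0 and 8.95 FPKM in Vector libraries. Here replicate 1 was higher than the others in both groups, and the gene did not pass (log2 fold change −0.11, SE 0.42, adjusted p = 0.933 in limma and 0.267 with the block). EIF6, which keeps the large ribosomal subunit from joining too early, rose with the block by 0.30 on the log2 scale (adjusted p = 0.0356, limma), but not after the correction for GC content (adjusted p = 0.114) or in replicates 2 and 3 alone (adjusted p = 0.0949). EIF5, EIF5AL1 and EIF5B did not pass, with log2 fold changes of −0.09, 0.15 and 0.16, although EIF5B did with the block and the correction for GC content (adjusted p = 0.0152, limma).

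How replicate 1 differed was much the same in both groups and went with base composition. Replicate 1 was above the mean of replicates 2 and 3 in both groups for 23 of the 46 genes, below it in both for 16, and on opposite sides for 7. By more than 0.5 on the log2 scale in both groups, 10 genes were higher and 7 lower, or 37.0% against 39.1% of all genes. Across the 46 genes the difference averaged over the groups had a Pearson's r of −0.81 and a Spearman's rho of −0.78 with the GC content of the longest transcript, and r was −0.82 across 11476 genes of any kind. EIF5A2, with 34.3% GC, was 1.08 higher in replicate 1 of oeCSGALNACT2 cells and 1.03 higher in replicate 1 of Vector cells. EIF4EBP1, with 65.5% GC, was lower there, with differences of −1.21 and −1.23. These correlations are descriptions across genes that share libraries. After a correction of every library for GC content and without the block, 5 of the 46 genes rose and 6 fell in limma, 23.9% against 22.9% of all genes. With the correction and the block 10 rose and 13 fell, where 42.3% of all genes passed. All 10 genes with a pyrimidine start were below 0 after the correction as well, with a median of −0.25.

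**Figure D5:**
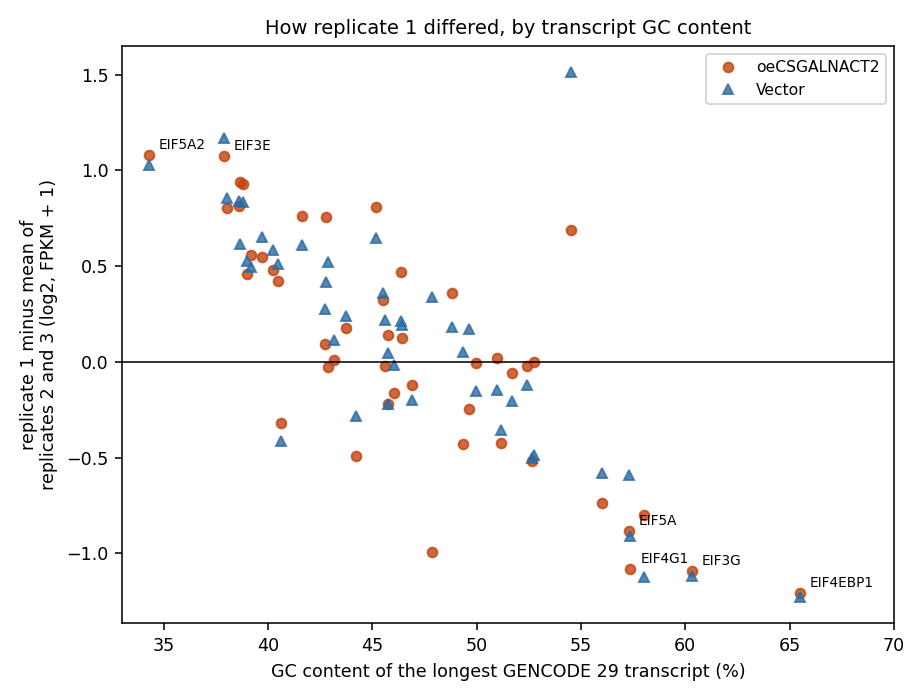
Replicate 1 minus the mean of replicates 2 and 3, in log2 of FPKM + 1, against the GC content of the longest transcript for the 46 tested initiation factor genes, with oeCSGALNACT2 libraries as circles and Vector libraries as triangles. Genes of low GC content such as EIF5A2 are higher in replicate 1 of both groups, and genes of high GC content such as EIF4EBP1 are lower.

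Other genes of the pathway were counted in 5 lists, against 1.35% of all genes called in limma, 43.7% called with the block, and a median log2 fold change of −0.01. An unadjusted p under 0.05 in limma was found for 17.1% of all genes. Of 13 tested partners of the initiation factors, 0 passed in limma (2 at an unadjusted p under 0.05), and 4 rose and 5 fell with the block, 69.2% of the list with a median log2 fold change of 0.06. DDX3X, an RNA helicase of the scanning ribosome, had 26.4 ± 3.21 FPKM in oeCSGALNACT2 and 16.7 ± 2.75 FPKM in Vector cells (SD, n = 3 libraries each) and rose with the block (adjusted p = 0.159 in limma and 0.00167 with the block). PDCD4, an inhibitor of eIF4A, had 8.38 ± 2.74 FPKM in oeCSGALNACT2 and 14.6 ± 4.09 FPKM in Vector cells (SD, n = 3 libraries each) and fell with the block (adjusted p = 0.248 in limma and 0.00167 with the block).

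Of 11 genes of the eIF2 alpha kinases and phosphatase, 1 passed in limma, and with the block 3 rose and 5 fell, 72.7% of the list with a median log2 fold change of 0.07. PPP1R15A encodes GADD34, the stress-induced subunit that directs the phosphatase to eIF2 alpha. It had 29.4, 41.5 and 40.0 FPKM in oeCSGALNACT2 libraries, against 94.6, 140 and 159 FPKM in Vector libraries. PPP1R15A fell in limma without the block, with non-overlapping groups (log2 fold change −1.78, SE 0.25, adjusted p = 0.0357).

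Of 12 tested genes of ATF4 and its targets, which are induced when eIF2 alpha is phosphorylated, 1 rose and 3 fell in limma, and with the block 1 rose and 10 fell. These 11 are 91.7% of the list, against 43.7% of all genes, and the median log2 fold change was −1.16. The list was chosen with earlier results of these data known. The tested gene that did not pass was ATF4 itself (log2 fold change −0.22, adjusted p = 0.194 in limma and 0.0529 with the block). ATF4 had 140 ± 3.57 FPKM in oeCSGALNACT2 and 164 ± 17.9 FPKM in Vector cells (SD, n = 3 libraries each). TRIB3, a pseudokinase, had 8.55, 12.8 and 13.0 FPKM in oeCSGALNACT2 and 36.6, 62.3 and 65.9 FPKM in Vector libraries (log2 fold change −2.15, SE 0.29, adjusted p = 0.0312, limma). CEBPG, a partner of ATF4 on DNA, had 16.4, 10.9 and 11.7 FPKM in oeCSGALNACT2 and 43.4, 34.2 and 33.7 FPKM in Vector libraries (log2 fold change −1.46, SE 0.21, adjusted p = 0.039, limma). ATF3 averaged 0.799 ± 0.291 FPKM in oeCSGALNACT2 and 3.44 ± 0.337 FPKM in Vector cells (SD, n = 3 libraries each, log2 fold change −1.31, adjusted p = 0.0315, limma). ATF5, a transcription factor of the same family, went the other way, with 7.67, 10.3 and 8.68 FPKM in oeCSGALNACT2 and 1.34, 1.65 and 1.34 FPKM in Vector libraries (log2 fold change 2.01, SE 0.16, adjusted p = 0.00932, limma). No gene of the 5 lists passed in limma without Vector replicate 2, Vector replicate 3, oeCSGALNACT2 replicate 2 or oeCSGALNACT2 replicate 3, where 0.0436% to 0.0697% of all genes passed.

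Of 13 tested genes of mTORC1, S6 kinase and MNK signalling, 0 passed in limma (3 at an unadjusted p under 0.05), and 4 rose and 3 fell with the block, 53.8% of the list with a median log2 fold change of 0.25. DDIT4, an inhibitor of mTORC1 also known as REDD1, had 4.72, 12.6 and 14.2 FPKM in oeCSGALNACT2 libraries, against 38.8, 131 and 150 FPKM in Vector libraries. Its groups did not overlap, and it fell with the block (log2 fold change −3.13, SE 0.61, adjusted p = 0.0677 in limma and 0.000317 with the block). MKNK1, for a kinase that phosphorylates eIF4E, had 3.86 ± 0.483 FPKM in oeCSGALNACT2 and 2.13 ± 0.141 FPKM in Vector cells (SD, n = 3 libraries each) and rose with the block (adjusted p = 0.105 in limma and 0.00497 with the block). Of 10 tested genes of elongation, termination and hypusine synthesis, 0 passed in limma (1 at an unadjusted p under 0.05), and 3 rose and 1 fell with the block, 40.0% of the list with a median log2 fold change of 0.10. EEF2K, the kinase that inhibits elongation factor eEF2, rose with the block (log2 fold change 0.52, adjusted p = 0.0154, limma). EEF1A1, the elongation factor that delivers aminoacyl tRNA, had 2091 ± 113 FPKM in oeCSGALNACT2 and 2448 ± 60.3 FPKM in Vector cells (SD, n = 3 libraries each). Its adjusted p with the block was 0.0549 in limma, which does not pass.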

How the data were processed

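RNA-seq was done on 3 oeCSGALNACT2 and 3 Vector samples of HEY cells, with a SMARTER mRNA kit, at Novogene. Groups and replicate numbers were taken from the sample descriptions. The titles of the oeCSGALNACT2 samples name CSGALNACT1, but CSGALNACT2 was the gene that was high in them. The authors deposited FPKM values for all genes, whole-number counts per gene in a table of which 1310 genes were used here, and a table of FPKM with group means that was not used. Which aligner and counter they ran is not given in the sources used here. In the submitters' processing notes the build is mm10, but all 58735 genes lie at GENCODE 29 positions on GRCh38, which was used.

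Reads were recovered from the deposited FPKM values, came to whole numbers, with a tolerance of 0.01, for 100% of values, and matched the deposited counts exactly in 1310 of 1310 genes. Groups were compared with limma 3.58.1 (R 4.3.3, trend) on log2(FPKM + 1), keeping genes whose mean was at least 1 FPKM, with Benjamini-Hochberg adjustment over 11479 genes and a threshold of 0.05. This scale understates the changes of low genes. Each SE is from limma without the block, except the SE of 0.064 for EIF3G. The recovered reads were tested with edgeR 4.0.16 (quasi-likelihood) and DESeq2 1.42.0. Limma with and without the block, edgeR without it and DESeq2 were also run on simulated counts. These counts held no shared difference between replicates, so they could not test how the block handles one. A test of one ratio was an exact two-sided permutation test.

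Deviations from the group means correlated across genes between libraries of the same number at r = 0.810, 0.632 and 0.686 for replicates 1, 2 and 3, so the replicate number was used as a block. No label states this pairing, which rests on the data. Replicates 2 and 3 also correlated across numbers (0.682 and 0.590), so it is not shown that they pair by number.

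Members and lists were chosen with earlier results of these data known. Values in every library are given for the 6 genes with the smallest p in each direction and for EIF4E, EIF4A1, EIF4A2, EIF4G1, EIF4G2, EIF4G3, EIF4EBP1, EIF4EBP2, EIF4EBP3, EIF2S1, EIF2S2, EIF2S3 and EIF5A2. In partner lists, genes past the threshold or the 2 with the smallest p are named. Other genes given by library were chosen after their values were seen, as were the pyrimidine starts and the GC correction (lowess in each library). Shared words used 50 bases because the read length is not given in the sources used here. Alternatives were a pseudocount of 0.1, no filter, protein-coding genes, TMM and RLE scaling, the block, replicates 2 and 3, and each library left out. The number of libraries limits the precision.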

Additional observations from a re-analysis of the deposited data

How the results depend on the processing

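Without the block, limma called 0 initiation factor genes also with a pseudocount of 0.1, no filter or TMM scaling, and edgeR called 0 with either scaling. On protein-coding genes 0 rose and 1 fell, and in DESeq2 1 rose and 2 fell. With the replicate block the numbers were 11 and 15 in limma and 13 and 16 in edgeR, 10 and 14 with replicates 2 and 3 only, 5 and 6 after removal of the GC trend, and 10 and 13 after that removal with the block. Leaving out 1 library gave 0 risen genes and 0 to 2 fallen ones. Of all genes, 43.7% passed in limma with the block, 50.2% in edgeR with the block and 4.54% in DESeq2. The share was 41.8% in replicates 2 and 3 alone, 22.9% after removal of the GC trend and 42.3% after that removal with the block. It was 1.35% in limma without the block, 1.69% on protein-coding genes, 0.11% with no filter and 0.0436% to 1.39% with 1 library left out. The partner counts stand beside the same shares. Over the 5 partner lists 1 gene rose and 4 fell in limma, with 15 and 24 under the replicate block, 19 and 25 in edgeR with the block, 2 and 11 in DESeq2, 6 and 16 after removal of the GC trend, 16 and 24 after that removal under the block, 15 and 22 in replicates 2 and 3 alone, and 1 and 0 with no filter. Leaving out 1 library gave 0 to 1 risen and 0 to 3 fallen genes. Without Vector replicate 2, Vector replicate 3, oeCSGALNACT2 replicate 2 or oeCSGALNACT2 replicate 3, no partner gene passed.

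The median log2 fold change of the 46 genes was −0.09, with −0.045 and −0.047 in edgeR with TMM and RLE scaling, 0.0018 with the GC trend removed, with or without the block, and −0.11 to 0.023 with 1 library left out. Its sign is therefore not stable. For the pyrimidine-start genes the median was −0.25 with the GC trend removed, with or without the block, and −0.42 to −0.27 with 1 library left out. All 10 lay below 0 under every setting except without Vector replicate 2 or Vector replicate 3, where 9 did. The log2 fold change of EIF5A2 was −0.11 in limma, 0.076 with the GC trend removed, with or without the block, and −0.47 to 0.23 with 1 library left out. It was above 0 without Vector replicate 1 (0.23), oeCSGALNACT2 replicate 2 (0.092) and oeCSGALNACT2 replicate 3 (0.046). The log2 fold change of EIF4E was −0.066 to 0.26 with 1 library left out, and below 0 without Vector replicate 2 (−0.0014), Vector replicate 3 (−0.00077) and oeCSGALNACT2 replicate 1 (−0.066). The other 18 named and tested genes kept their direction under every setting. CSGALNACT2 passed under every setting. The exact paired sign-flip test of the 6 ratios, with the replicate block, gave p = 0.25 for each, the smallest it allows. The causes of these differences were not tested.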
